A study of Mus musculus with 12 samples.

Results

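Mitochondrial ribosomal protein genes are described here in EO771-tdT-LM2 cells, a mouse mammary cancer line with a red fluorescent label. The genes were taken by name, as rows whose Ensembl ID maps to a protein-coding mouse gene with a symbol of Mrpl or Mrps, a number and at most 1 further letter. This gave 78 of the 55414 gene IDs in the count table, 49 with an Mrpl and 29 with an Mrps symbol. By the place of the protein in the mammalian mitochondrial ribosome, 51 belong to the large and 26 to the small subunit, and Mrps36 is now known as a subunit of the 2-oxoglutarate dehydrogenase complex. The symbols Mrps18a and Mrps30 name proteins of the large subunit and were counted there.

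The study compared such cells given GDNF, a neurotrophic growth factor, an antibody to NCAM1, an adhesion molecule that can serve as a GDNF receptor, both or neither. All cells were labelled wild type, and were treated for 24 hours. Before that they were put for 30 minutes in medium low in glucose (10 mg/dl) with 1% FBS and then seeded in 12-well plates. The 3 control cultures received 0.1% BSA with 2.5 µg/mL IgG. The 3 GDNF cultures received 0.2 µg/mL GDNF with 2.5 µg/mL IgG, and the 3 anti-NCAM1 cultures received 2.5 µg/mL antibody with 0.1% BSA. The 3 cultures of the last group received GDNF and antibody at the same doses. By the labels each condition had triplicates, with no word on whether these were separate experiments, so a p-value measures no more than their spread.

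Mitochondrial ribosomes translate the few proteins encoded in mitochondrial DNA, which are subunits of the respiratory chain and of ATP synthase. Their RNAs are made inside the organelle, whereas all their proteins are encoded in the nucleus, made in the cytosol and imported. Some of these proteins descend from bacterial ribosomal proteins and others occur only in mitochondrial ribosomes. In mammals, factors such as NRF1, the ETS protein GABP and YY1 are known to bind promoters of many nuclear genes for mitochondrial proteins.

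Libraries held 5616398 to 8093754 counts, and 11332 genes passed the filter on low counts. Of the members 77 were tested, and Mrpl53, a large subunit protein, was listed at 0 counts in all 12 libraries. Epcam and Krt8, markers of epithelial cells, averaged 15.4 and 537 CPM (counts scaled to a common library size), while Krt19, Krt7, Cldn3, Cldn4, Cldn7 and Esrp1 were at 0, and Krt18 and Cdh1 had 3 and 17 counts over all libraries. Summed leukocyte markers reached 7.45 to 10.1 CPM and endothelial markers 2.78 to 5.12 CPM. Fibroblast markers summed to 639.5 to 815 CPM, mostly Col1a1, Pdgfra and Col3a1, with Lum at 0 and Col1a2, Dcn and Thy1 at 1 or 2 counts in all. Basal and myoepithelial markers summed to 711 to 769 CPM, nearly all Acta2, with Krt5 and Trp63 at 0, and neuron and glia markers to 26.4 to 48.6 CPM, mostly Tubb3. One library, GDNF replicate 3, stood apart: 10.2% of its counts fell on mitochondrially encoded genes, against 4.11 to 5.29% in the other 11. Most values of genes named in the GDNF comparisons are therefore also given without it.

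Some sequence features that the choice by name did not use were more frequent in promoters of members than in those of all protein-coding genes. The latter include genes not tested here, and no share over tested genes alone was taken. RefSeq promoters (GRCm38.p6, 250 bases before to 50 after a start) were found for 69 members, 75 promoters in all, and were searched on both strands. The ETS motif CCGGAAG, which GABP recognises, was in 34.7% of these promoters, against 11.6% of the promoters of all protein-coding genes. The NRF1 motif, GCGCA and GCGC with any 1 base between, was in 17.3% against 6.38%, and the YY1 motif AANATGGCG in 14.7% against 3.12%. The ZNF143 motif, ACTACA and TCCC with any 2 bases between, was searched after it was noticed in the sequences and was in 6.67% against 2.54%. In 25 of the 69 members none of the 4 motifs was found. The promoters were also somewhat richer in G and C, with a median of 58.7% against 56.3%. The 5 sequences that follow show these motifs in capitals, 5′ to 3′ on the strand of the gene, in the 100 bases before the start. All were picked by hand from members with a motif in this stretch, and none of the stretches overlaps an annotated exon. In Mrpl34 the ETS motif overlaps the end of a ZNF143 motif, and a second ZNF143 motif follows.
Mrps22 (chr9:98601680-98601779, minus strand): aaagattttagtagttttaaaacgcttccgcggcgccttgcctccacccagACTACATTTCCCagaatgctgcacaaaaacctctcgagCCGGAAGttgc
Mrpl34 (chr8:71464826-71464925, plus strand): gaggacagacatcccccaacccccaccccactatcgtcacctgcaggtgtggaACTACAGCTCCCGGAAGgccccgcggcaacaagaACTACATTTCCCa
Mrpl43 (chr19:45006443-45006542, minus strand): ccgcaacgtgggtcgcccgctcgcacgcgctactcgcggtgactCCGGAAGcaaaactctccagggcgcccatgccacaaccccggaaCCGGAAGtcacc
Mrpl45 (chr11:97315616-97315715, plus strand): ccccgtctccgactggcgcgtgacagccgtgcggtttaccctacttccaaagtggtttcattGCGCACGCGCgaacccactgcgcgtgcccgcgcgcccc
Mrpl58 (chr11:115403652-115403751, plus strand): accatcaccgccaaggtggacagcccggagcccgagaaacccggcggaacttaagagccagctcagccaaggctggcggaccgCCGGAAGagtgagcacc

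A second feature, found in a minority of members, is the position of the gene. In the GENCODE M21 annotation, 18 of the 78 members (23.1%) have the start of a protein-coding gene on the opposite strand within 1000 bases upstream of their own. Pairs whose starts lie the other way round, so that the genes overlap, were not counted. The share was 6.79% over all 21951 protein-coding genes, tested here or not. Mrps18c starts 29 bases from Helq, a DNA helicase gene, Mrpl57 starts 49 bases from Ska3, a kinetochore gene, and Mrpl32 starts 75 bases from Psma2, a proteasome subunit gene. Exons of 28 members overlap a gene on the opposite strand and those of 8 a gene on the same strand. Since the use of strand in counting is not given in the sources used here, reads of such neighbours cannot be told apart from those of the member. Mrpl46 and Mrps11, for example, overlap each other. Processed pseudogenes took few counts, at most 27 over all libraries for Mrpl23-ps1.

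Levels differed widely between members when set per length of transcript, as CPM per kilobase of the median annotated coding transcript. The highest levels were those of Mrpl30 at 92.2, Mrps17 at 78.3, Mrps21 at 76.5, Mrpl42 at 71.0 and Mrpl13 at 68.9 CPM per kilobase. The lowest were those of Mrps25 at 3.15, Mrpl57 at 5.19, Mrpl47 at 5.604, Mrps26 at 6.15 and Mrpl1 at 8.64 CPM per kilobase. Both subunits occur at both ends of this order. The 5 lowest members have annotated transcripts of 2877 to 6073 bases and the 5 highest of 405 to 955, and which transcripts the cells make was not tested. Without division by length, Mrpl9 had the highest mean count, 100.1 CPM, and Mrps18c the lowest of those tested, 6.03 CPM.

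Together the members took 0.253 to 0.279% of the counts, depending on the library. Their summed level was 2578, 2545 and 2609 CPM in the control cultures and 2692, 2645 and 2789 CPM with GDNF. It was 2610, 2672 and 2744 CPM with the antibody, and 2619, 2652 and 2607 CPM with both. On this scale all 3 GDNF cultures and all 3 antibody cultures lay above the highest control, by a small margin in the lowest of each. So did 2 of the 3 cultures with both. This order rests on the scaling. As an unscaled share of the counts, control replicate 3 stood at 0.2684%. GDNF replicate 2 (0.2549%) and anti-NCAM1 replicates 1 and 3 (0.2536 and 0.2619%) were below it. GDNF replicates 1 and 3 (0.2704 and 0.2722%) and anti-NCAM1 replicate 2 (0.2791%) were above it. With both, replicate 2 (0.2700%) was above it and replicates 1 and 3 (0.2677 and 0.2659%) below. The group mean was 2577 ± 32.0 CPM for control and 2708 ± 73.7 for GDNF. It was 2675 ± 66.8 for the antibody and 2626 ± 23.4 CPM for the combination (SD, n = 3). In bulk RNA fewer cells of a type and less RNA per cell cannot be told apart. No test was made of this sum.

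The subunits were close to each other. The summed large subunit genes stood at 1749 ± 15.6 CPM in control and 1824 ± 25.4 with GDNF, and the small subunit genes at 820.4 ± 17.3 and 873.9 ± 47.6 (SD, n = 3). The highest small subunit sum, 927.7 CPM, was that of GDNF replicate 3, against 805 to 874 in the other libraries. Mitochondrially encoded protein genes, whose products these ribosomes make, differed far more between libraries. On the mean log2(CPM + 2) scale, 10 of their 13 genes that could be tested stood 0.11, 0.33 and 1.20 above control in GDNF replicates 1, 2 and 3, while the members stood 0.056, 0.025 and 0.069 above. In the anti-NCAM1 cultures the mitochondrially encoded genes stood at 0.15, 0.024 and 0.20, and the members at 0.00021, 0.047 and 0.077. These means weigh the 10 genes alike, though mt-Co2, mt-Co3 and mt-Atp6 had only 1.28 to 8.83 CPM and mt-Co1 24388 to 57248 CPM. Not all followed the mean: mt-Nd6 had 356, 352 and 349 CPM in control and 374, 300 and 389 CPM with GDNF.

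**Figure D1:**
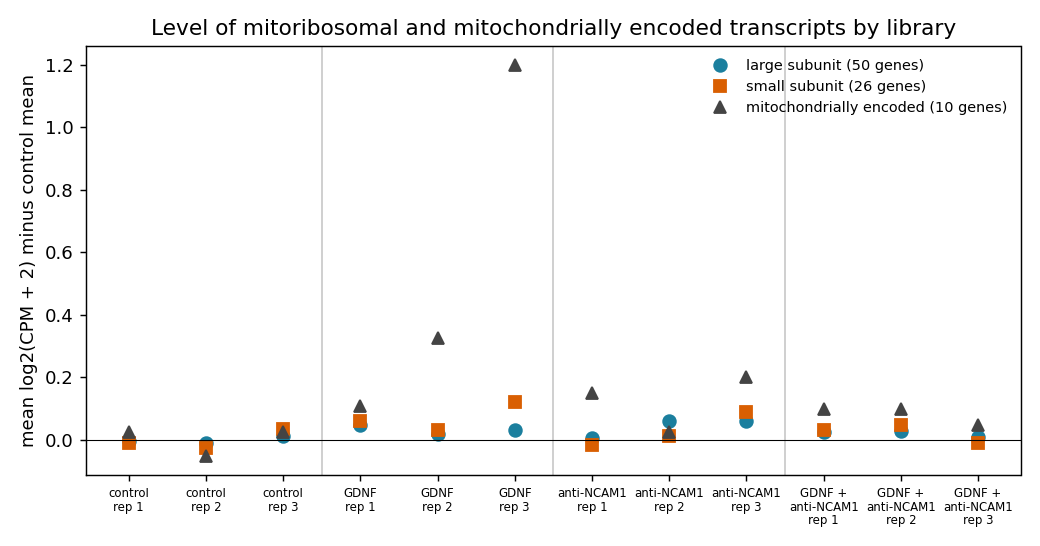
Mean level of large subunit genes (circles), small subunit genes (squares) and mitochondrially encoded genes (triangles) in each of the 12 libraries, as mean log2(CPM + 2) minus the control mean (vertical axis). The ribosomal protein genes stay near 0 throughout, while the mitochondrially encoded genes reach 1.20 in GDNF replicate 3.

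Single members varied between libraries more than their sum did, which summing by itself brings about, since counting noise averages out over many genes. The median count per tested member and library was 216. The part of counting noise in the ranges that follow was not tested. The highest library exceeded the lowest by a median of 1.46-fold over the 77 tested members, and by 2.39-fold at most, in Mrpl44. Without GDNF replicate 3 the median was 1.36-fold and the most 1.93-fold, and the number of members past 1.5-fold was 14 in place of 30. GDNF replicate 3 was the highest library for 21 members and the lowest for 21 others. In that library 25 members lay more than 0.3 from their mean over the 12 libraries on the log2 scale, against 0 to 5 in each of the others. The SD of these deviations was 0.30 there and 0.097 to 0.15 elsewhere. Over all tested genes it was 0.35 in that library, so the wider spread was not limited to the members.

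The members at both extremes show what this means in counts. Mrps15, a small subunit protein with a bacterial counterpart, stood at 68.4 CPM in GDNF replicate 3 and at 33.9 and 37.7 CPM in the other GDNF cultures. Its control cultures had 35.5, 41.7 and 39.0 CPM. Mrpl44, a large subunit protein related to the RNase III family, had 11.9 CPM in GDNF replicate 3 and 24.6 and 21.9 in replicates 1 and 2, against 23.2, 21.7 and 28.5 CPM in control. For both genes the first 2 GDNF cultures thus lay in or near the control range and the third far outside it, above in Mrps15 and below in Mrpl44. Mrpl20, a large subunit protein, was also lowest there, at 20.0 CPM against 39.2 and 30.1 in the other GDNF cultures. These 3 members were singled out after their values were seen.

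**Figure D2:**
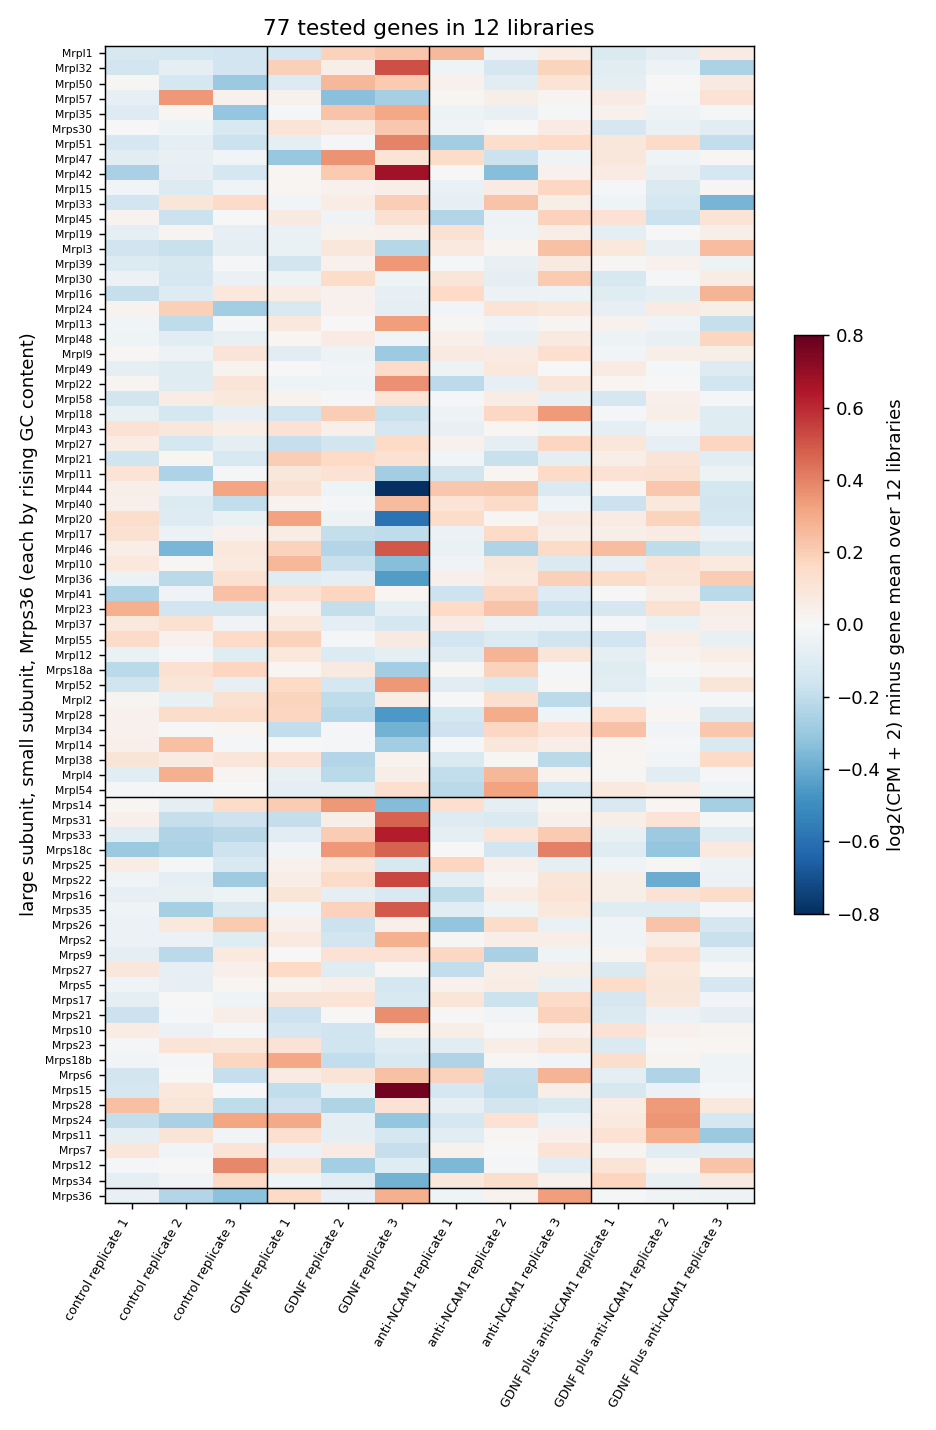
Deviation of each of the 77 tested genes (rows, by subunit and rising GC content) from its own mean over 12 libraries (columns), in log2(CPM + 2) units, red above and blue below. The column of GDNF replicate 3 holds the strongest colours of both signs.

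On average the deviations in GDNF replicate 3 fell with the GC content of the transcript, with exceptions such as Mrps15, the highest of all at 54.0% GC. Over the 77 members, as a description across genes of 1 library, Pearson's r was -0.39 there and -0.55 in GDNF replicate 2. Slopes, unlike r, came from a fit on GC content and log2 transcript length together, and are given per 10 points of GC content. In GDNF replicate 3 the slope was -0.32 log2 units over the members and -0.31 over all genes. The slope over the members was -0.20 in GDNF replicate 2, -0.16 in anti-NCAM1 replicate 3 and -0.060 in anti-NCAM1 replicate 1. In the other 8 libraries it was between 0.048 and 0.16. GC content of the members ran from 41.4 to 60.6% with a median of 50.4%, close to the median of 50.8% over all tested genes, and their transcripts were shorter, with a median of 1056 against 2080 bases. The part of GC content in the results below was not tested beyond the values given with its trend removed.

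**Figure D3:**
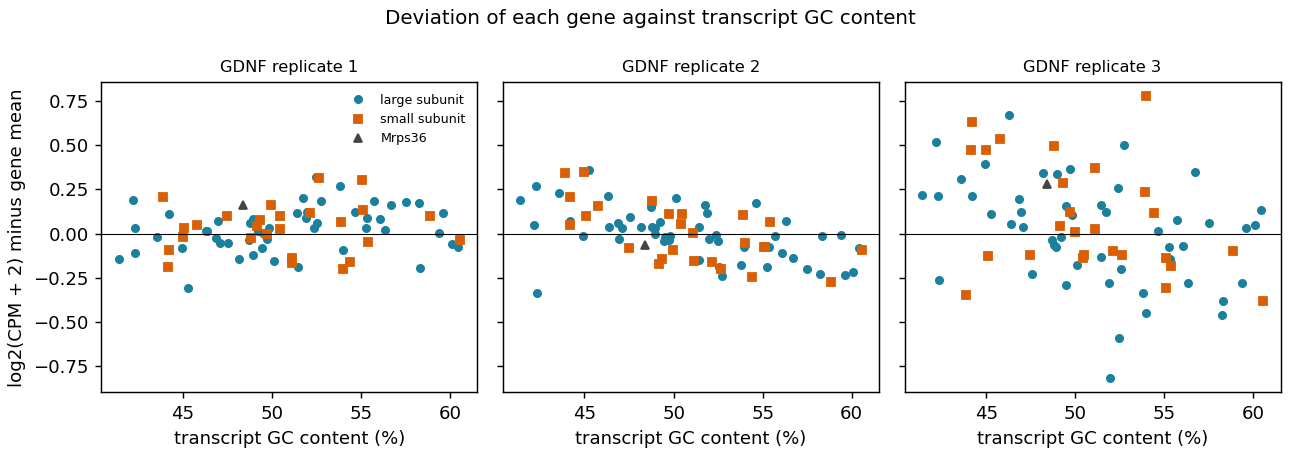
Deviation of each tested gene from its mean over 12 libraries (vertical axis, log2(CPM + 2)) against transcript GC content (horizontal axis, percent) in GDNF replicates 1, 2 and 3. In a fit that also held log2 transcript length, the slope over the members was -0.32 log2 units per 10 points in replicate 3. It was -0.20 in replicate 2 and 0.050 in replicate 1, and is not that of a line through the plotted points.

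Treatment with GDNF was first compared with control. No member passed in edgeR's quasi-likelihood test at an adjusted p of 0.05, as no gene did (0% of 11332). In DESeq2 31 genes and 0 members passed, with 11 members (14.3%) at an unadjusted p under 0.05 against 17.3% of all genes. In limma-voom 0 genes passed, with 14 members (18.2%) at that level against 21.6% of all genes. The median log2 fold change of the 77 members was 0.041, against 0.0021 over all genes, with 49 members higher and 28 lower. An unadjusted p under 0.05 was found in 13 members with a higher and 1 with a lower level, 18.2% of the 77, against 20.3% over all genes (11.6% higher, 8.7% lower). In 13 members the GDNF and control cultures did not overlap, 12 with GDNF above and 1 below, or 16.9%, against 17.6% over all genes. Both shares of members were near the background. By direction, the 12 members above are to be read against 9.89% of all genes and the 1 below against 7.76%. The fibroblast markers also differed here, with sums of 780.4, 770.9 and 815 CPM in control and 741, 639.5 and 687 CPM with GDNF, which do not overlap. Neuron and glia markers stood at 44.3, 47.1 and 47.3 CPM in control and 44.3, 34.3 and 26.4 CPM with GDNF. The part of either list in the values of the members was not tested.

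Among the members with higher levels under GDNF, the smallest p-values were those of Mrpl42, Mrps35, Mrpl32 and Mrps33. Mrpl42, a protein found only in the large subunit of mitochondrial ribosomes, stood at 38.3, 44.1 and 41.8 CPM in control and at 46.6, 53.8 and 74.7 CPM with GDNF. The groups did not overlap, and the third GDNF culture was well above the rest. Its log2 fold change was 0.50 (SE 0.15, edgeR adjusted p = 0.165), and 0.27 without GDNF replicate 3. Mrps35, a small subunit protein without a bacterial counterpart, stood at 52.7, 44.6 and 49.7 CPM in control and at 53.0, 61.5 and 76.8 CPM with GDNF. The lowest GDNF culture was barely above the highest control, and the log2 fold change was 0.39 (SE 0.12, edgeR adjusted p = 0.165), or 0.22 without that library.

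Mrpl32, whose precursor is cut by the mitochondrial m-AAA protease before it enters the large subunit, stood at 28.5, 30.3 and 28.5 CPM in control and at 36.6, 33.1 and 46.4 CPM with GDNF. All GDNF cultures were above all controls, with a log2 fold change of 0.42 (SE 0.13, edgeR adjusted p = 0.167), and 0.25 without GDNF replicate 3. Mrps33, of the small subunit, stood at 20.3, 17.98 and 18.3 CPM in control and at 20.1, 25.2 and 34.5 CPM with GDNF. The first GDNF culture lay within the control range, and the log2 fold change of 0.51 (SE 0.16, edgeR adjusted p = 0.169) was 0.26 without the third. Mrps22, another small subunit protein, stood at 34.4, 33.3 and 28.3 CPM in control and at 36.3, 39.2 and 51.6 CPM with GDNF, again with the third culture highest, and its log2 fold change without that culture was 0.24.

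Members with lower levels under GDNF were led by Mrpl57, at 14.1, 19.4 and 15.3 CPM in control and 15.2, 11.3 and 12.0 CPM with GDNF. This large subunit protein overlapped between the groups, and its log2 fold change was -0.34 (SE 0.15, edgeR adjusted p = 0.224). Without GDNF replicate 3 it was -0.31. Mrpl9, the member with the most counts, stood at 101, 96.8 and 108 CPM in control and at 94.1, 97.0 and 81.2 CPM with GDNF, a log2 fold change of -0.17 (SE 0.079, edgeR adjusted p = 0.25), or -0.098 without GDNF replicate 3. Mrpl28 differed by -0.28 (SE 0.16) and Mrps34 by -0.20 (SE 0.12), both with overlapping cultures, and by -0.14 and -0.10 without GDNF replicate 3. With the trend on GC content and length removed, the value of Mrps34 turned to 0.039.

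**Figure D4:**
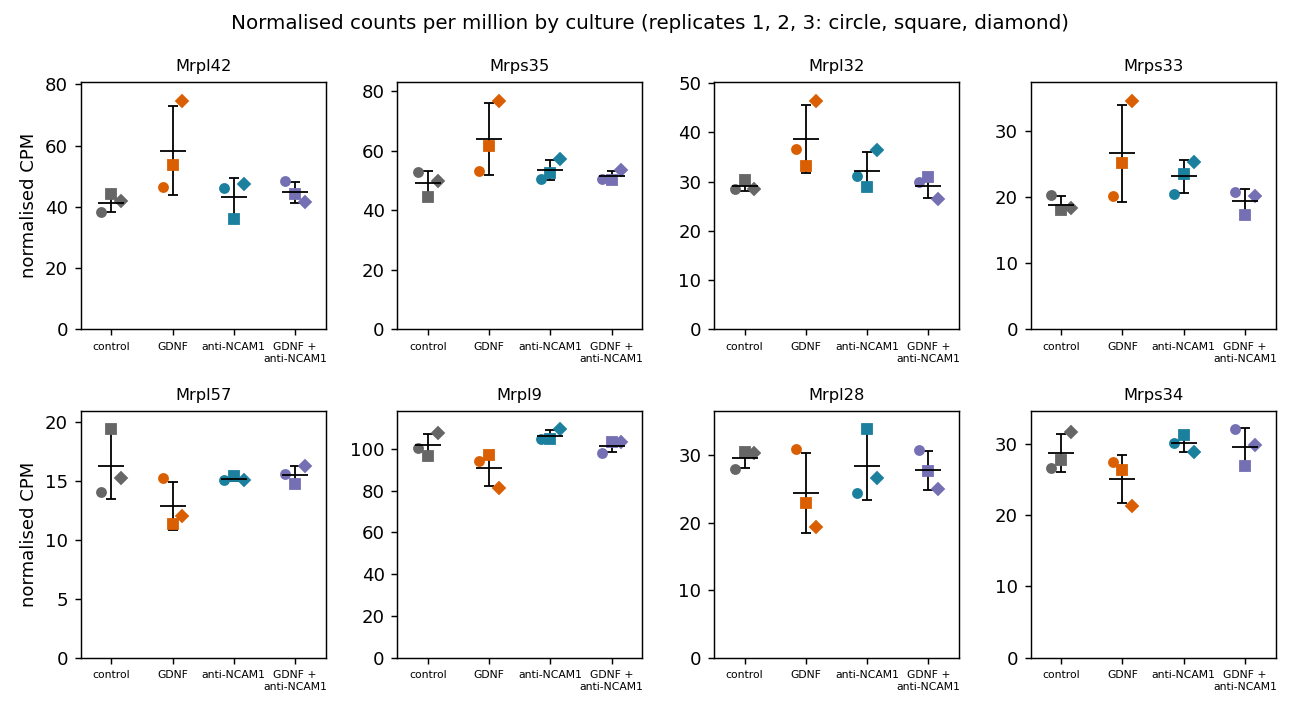
Normalised CPM (vertical axes, from 0) of the 8 members with the smallest p-values in GDNF against control, 4 higher (top) and 4 lower (bottom), in the 4 groups. Points are cultures, horizontal bars group means and error bars the SD (n = 3); none of the 8 passed, and in the top row the third GDNF culture is the highest of all 12.

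The precision of this comparison sets what could be seen. The standard error of a log2 fold change was 0.079 to 0.23 over the members, with a median of 0.13. The 95% interval of the difference lay within 1.5-fold in either direction for 62 of the 77 members, so that a larger difference is outside the interval for those. For the other 15 a 1.5-fold difference was not excluded at this depth and replication. The call depends on 1 library: without GDNF replicate 1, 2696 genes and 16 members passed, 23.5% of all genes and 20.8% of the members, 12 of them higher and 4 lower. Among these were Mrpl42 at 0.64 and Mrps33 at 0.67. Without GDNF replicate 3, 0 genes passed, and 7 members in place of 13 were higher at an unadjusted p under 0.05, or 9.09% against 6.33% of all genes. With the GC and length trend removed, 10 members were higher and 2 lower at that level. With GDNF replicate 3 also left out, 2 were higher and 3 lower. Shares of all genes at that level are not given for the fits with the trend removed.

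The antibody alone was then compared with control. No member and no gene passed (0% of 11332, edgeR). The median log2 fold change of the members was 0.050, against 0.0045 over all genes, with 51 members higher and 26 lower. An unadjusted p under 0.05 was found in 4 higher and 1 lower, 6.49% against 5.29% over all genes (2.61% higher, 2.67% lower). Cultures did not overlap in 7 members above and 3 below control, 13.0% against 16.9% over all genes (9.02% above, 7.85% below). For 72 of the 77 members the 95% interval lay within 1.5-fold. DESeq2 and limma-voom also passed 0 genes, with 2 and 3 members (2.6% and 3.9%) at an unadjusted p under 0.05, against 3.88% and 5.34% of all genes. Without GDNF replicate 3, which enters through the shared estimate of spread, 8 genes and 0 members passed. Fibroblast markers summed to 699.6, 764 and 702 CPM with the antibody, below the 3 controls, and their part in the values of the members was not tested.

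Mrpl3, a core protein of the large subunit, stood at 45.3, 44.8 and 48.3 CPM in control and at 53.8, 51.6 and 60.1 CPM with the antibody, and at 48.9, 54.4 and 43.1 CPM with GDNF. The antibody cultures were all above the controls, a log2 fold change of 0.26 (SE 0.11, edgeR adjusted p = 0.853), and the GDNF cultures overlapped both. Mrps36, the subunit of the 2-oxoglutarate dehydrogenase complex, stood at 8.67, 7.45 and 6.84 CPM in control and at 8.84, 9.33 and 12.0 CPM with the antibody. These did not overlap either, with a log2 fold change of 0.40 (SE 0.18, edgeR adjusted p = 0.853). With GDNF Mrps36 stood at 10.4, 8.64 and 11.5 CPM, overlapping the controls. That log2 fold change was 0.43 (SE 0.17, edgeR adjusted p = 0.204). Mrpl18 and Mrpl1, large subunit proteins with bacterial counterparts, were 0.26 higher each with the antibody (SE 0.12 each). With GDNF Mrpl1 differed from control by 0.25 (SE 0.12) and Mrpl18 by 0.054 (SE 0.12), both with overlapping cultures.

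Mrpl55, a large subunit protein with a bacterial counterpart, was lower with the antibody, at 8.99, 9.33 and 8.93 CPM against 11.6, 10.5 and 11.6 CPM in control. Its log2 fold change was -0.31 (SE 0.14, edgeR adjusted p = 0.853) and the groups did not overlap. Mrps12, which lies at the decoding centre of the small subunit, stood at 9.98, 10.1 and 13.8 CPM in control and at 7.44, 10.0 and 9.42 CPM with the antibody, a difference of -0.34 (SE 0.18). The log2 fold change was -0.20 (SE 0.098) for Mrpl38 and -0.12 (SE 0.097) for Mrpl43, both of the large subunit.

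**Figure D5:**
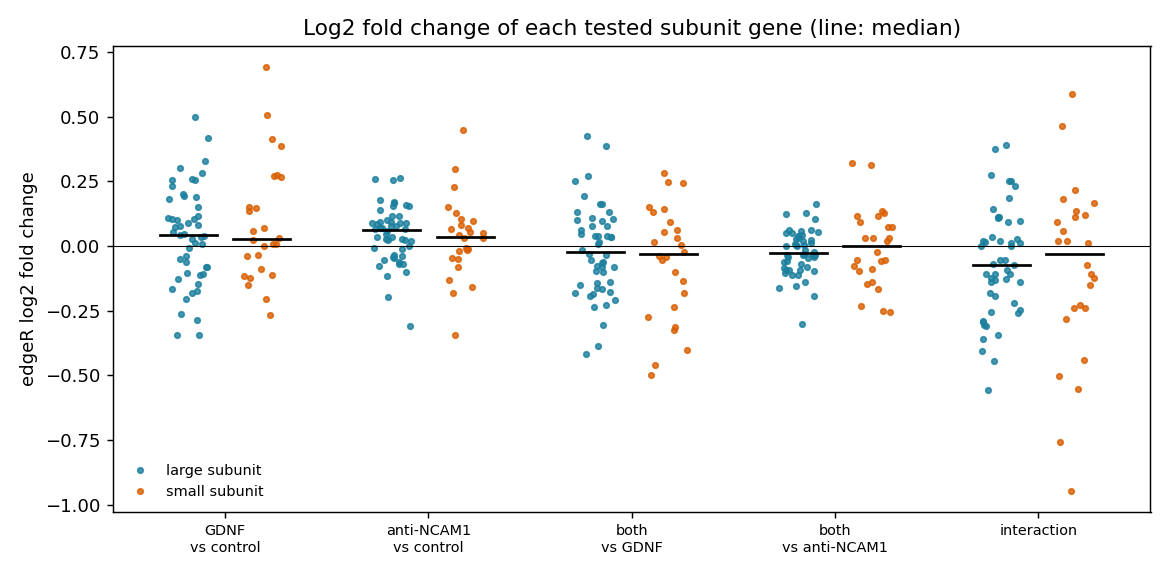
Log2 fold change from edgeR (vertical axis) of each tested large subunit gene (left of each pair) and small subunit gene (right) in the 5 comparisons; horizontal position within a strip is arbitrary and lines mark medians. The medians lie between -0.072 and 0.061 in all strips. Spread is smaller in anti-NCAM1 against control and in both against anti-NCAM1 than in the comparisons that use the cultures given GDNF alone.

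Adding the antibody to GDNF was compared with GDNF alone. This comparison shares the GDNF cultures with the first. No member and no gene passed (0% of 11332, edgeR). The median log2 fold change of the members was -0.031, against 0.00058 over all genes, with 36 members higher and 41 lower. An unadjusted p under 0.05 was found in 2 higher and 8 lower, 13.0% against 14% over all genes (6.15% higher, 7.81% lower). The cultures did not overlap in 2 members above and 7 below, 11.7% against 13.3% of all genes (6.2% above, 7.12% below). For 62 of the 77 members the 95% interval lay within 1.5-fold. DESeq2 and limma-voom passed 0 genes, with 7 and 8 members (9.09% and 10.4%) at an unadjusted p under 0.05, against 11.9% and 14.3% of all genes. Without GDNF replicate 1, 1986 genes and 7 members passed, 17.3% of all genes and 9.09% of the members. With GDNF replicate 3 left out, 0 genes passed, with 5 members (6.49%) at an unadjusted p under 0.05 against 6.1% of all genes.

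The 4 members with the smallest p in the lower direction were Mrpl32, Mrps22, Mrps30 and Mrps33. Mrpl32 had 30.0, 31.0 and 26.4 CPM with both agents, all below the 3 GDNF cultures and around the control level, a log2 fold change of -0.42 (SE 0.13, edgeR adjusted p = 0.331). Mrps22 had 36.3, 26.1 and 33.8 CPM with both, at -0.40 (SE 0.14, edgeR adjusted p = 0.331), and its highest culture was just under the lowest GDNF culture. Without GDNF replicate 3 these values were -0.26 for Mrpl32 and -0.23 for Mrps22. Mrps30, a large subunit protein despite its name, had 46.5, 49.5 and 48.2 CPM with both against 55.6, 53.9 and 59.9 CPM with GDNF, at -0.23 (SE 0.083), and here the 3 GDNF cultures were close together. Its control cultures had 51.4, 49.96 and 47.0 CPM, and without GDNF replicate 3 the difference was -0.19.

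Mrpl36, a short large subunit protein, was higher with both, at 23.8, 22.9 and 24.9 CPM against 19.8, 20.1 and 15.1 CPM with GDNF. Its control cultures, at 20.6, 18.1 and 23.4 CPM, overlapped those of both other groups. The log2 fold change was 0.39 (SE 0.14, edgeR adjusted p = 0.331), and 0.26 without GDNF replicate 3. Mrpl34 was 0.42 higher (SE 0.18, edgeR adjusted p = 0.336), with 10.6, 8.57 and 10.5 CPM with both and 7.38, 8.64 and 6.27 CPM with GDNF. The value of Mrpl34 was 0.31 without GDNF replicate 3. Mrps34 and Mrpl9, lower under GDNF, stood at 0.25 (SE 0.12) and 0.16 (SE 0.080), and at 0.14 and 0.090 without that library.

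Against the antibody alone, cultures with both agents differed least. No member passed and none had an unadjusted p under 0.05, against 2.51% of all genes at that level (1.26% higher, 1.24% lower) and 0% with an adjusted p under 0.05. The median log2 fold change of the members was -0.025, with 35 higher and 42 lower, and the cultures did not overlap in 2 members above and 3 below, 6.49% against 11.3% of all genes (5.52% above, 5.76% below). Mrps12 was highest of those named, at 11.1, 10.3 and 12.2 CPM with both against 7.44, 10.0 and 9.42 CPM with the antibody, a log2 fold change of 0.32 (edgeR adjusted p = 0.999). Mrps28, of the small subunit, stood at 13.3, 16.6 and 13.6 CPM with both and at 12.1, 11.3 and 11.5 CPM with the antibody, a log2 fold change of 0.31. Mrpl33, of the large subunit, was lower at 10.5, 9.62 and 7.87 CPM against 10.2, 13.0 and 11.2 CPM, with overlap, a log2 fold change of -0.30. The interval lay within 1.5-fold for 71 of the 77 members, and DESeq2 and limma-voom passed 0 genes, with 0 members at an unadjusted p under 0.05 against 1.53% and 2.26% of all genes.

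The interaction asks whether the effect of GDNF differed with the antibody present. It passed in no member and no gene (0% of 11332, edgeR), with 1 member above and 10 below 0 at an unadjusted p under 0.05, 14.3% against 16.8% of all genes (7.84% above, 8.93% below). This was the least precise comparison, with a median standard error of 0.18 over the members. The 95% interval lay within 1.5-fold for 45 of the 77 members. The most negative by p were Mrps33 at -0.76 (SE 0.24, edgeR adjusted p = 0.240), Mrpl32 at -0.56 (SE 0.18, edgeR adjusted p = 0.240), Mrps18c at -0.95 and Mrps22 at -0.55. On the positive side were Mrps12 at 0.59 (SE 0.26, edgeR adjusted p = 0.278), Mrps28 at 0.47, Mrpl57 at 0.37 and Mrpl38 at 0.28. The value of Mrpl38 turned to -0.066 with the GC and length trend removed. When GDNF replicate 3 was left out the values were -0.51 for Mrps33, -0.39 for Mrpl32, -0.79 for Mrps18c and -0.37 for Mrps22, and 0.59 for Mrps12, 0.61 for Mrps28, 0.34 for Mrpl57 and 0.31 for Mrpl38. Without that library 14 genes and 0 members passed, with 12 members (15.6%) at an unadjusted p under 0.05 against 14.9% of all genes. Without GDNF replicate 1, 1875 genes (16.4%) and 8 members (10.4%) passed. DESeq2 and limma-voom passed 0 genes, with 8 and 11 members (10.4% and 14.3%) at an unadjusted p under 0.05, against 14.6% and 17.3% of all genes.

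The 3 Mrps18 paralogs, which encode variants of 1 bacterial protein, differed in level and in spread. Mrps18b, of the small subunit, stood at 58.4 CPM per kilobase over all libraries, Mrps18a, of the large subunit, at 39.3 and Mrps18c, of the small subunit, at 9.46. Mrps18c had 4.42, 4.62 and 5.04 CPM in control and 5.79, 8.05 and 8.95 CPM under GDNF. The antibody cultures had 5.89, 5.09 and 8.44 CPM, and those given both agents 5.40, 4.37 and 6.33 CPM. All GDNF cultures and all antibody cultures were above all controls. The log2 fold change for GDNF was 0.69 (SE 0.23, edgeR adjusted p = 0.169) and 0.54 without GDNF replicate 3, and its 497 counts over 12 libraries made it the least well measured of the tested members. Mrps18a and Mrps18b differed from control by -0.11 (SE 0.13) and -0.035 (SE 0.13) under GDNF.

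Roles beside the ribosome's structure are known for Mrpl12 and Mrpl58, and neither passed in any comparison (edgeR). Mrpl12, a protein of the large subunit stalk that also binds the mitochondrial RNA polymerase in human cells, had 70.4 ± 2.06 CPM in control and 71.7 ± 5.33 under GDNF, against 78.5 ± 10.4 under the antibody and 73.4 ± 3.49 under the combination (SD, n = 3). Mrpl58, a peptidyl-tRNA hydrolase that frees stalled ribosomes, stood at 36.1 ± 3.33, 37.1 ± 1.66, 35.9 ± 1.60 and 35.1 ± 2.32 CPM in the same order. Its log2 fold change with GDNF was 0.037 (SE 0.098, edgeR adjusted p = 0.846).

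Other genes of mitochondrial translation were counted from lists of textbook members, and none of their genes passed in any comparison (edgeR). Of 5 mitochondrial ribosome proteins with other symbols, 3 were higher and 2 lower with GDNF, among them Dap3, a GTP-binding small subunit protein, at -0.15 (SE 0.090), or -0.093 without GDNF replicate 3. Of 13 translation factors 9 were higher and 4 lower, with a median of 0.11, and without that library 8 and 5, with a median of 0.0071. Tufm, the elongation factor that brings aminoacyl-tRNA to the ribosome, stood at 74.6, 61.9 and 73.6 CPM in control and at 64.7, 57.4 and 48.1 CPM with GDNF. It was lowest in the third GDNF culture and the groups overlapped, with a log2 fold change of -0.31 (SE 0.11, edgeR adjusted p = 0.169), or -0.20 without the third. Mrrf, which recycles ribosomes after termination, stood at 23.4, 24.7 and 27.5 CPM in control, at 29.8, 28.6 and 32.9 with GDNF, and at 27.1, 30.0 and 33.1 with the antibody. The GDNF cultures were all above the controls, with a log2 fold change of 0.27 (SE 0.11, edgeR adjusted p = 0.212), or 0.20 without GDNF replicate 3.

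Of 30 ribosome assembly and rRNA modification genes, 13 were higher and 17 lower with GDNF (median -0.051, or -0.028 without GDNF replicate 3). Rcc1l, a protein needed for mitochondrial ribosome assembly, had 29.3, 29.8 and 27.5 CPM in control and 24.0, 20.9 and 11.6 CPM with GDNF. All GDNF cultures were below the controls and the third far below, with a log2 fold change of -0.62 (SE 0.18, edgeR adjusted p = 0.165), or -0.37 without it. Of 16 genes of mitochondrial transcription and RNA stability 9 were higher and 7 lower. Pnpt1, the polynucleotide phosphorylase of mitochondria, had 239, 240 and 229 CPM in control and 259, 298 and 385 CPM with GDNF, a log2 fold change of 0.41 (SE 0.11, edgeR adjusted p = 0.165). Its highest value again lay in the third GDNF culture, without which the log2 fold change was 0.23.

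Of 8 tested transcription factors of nuclear mitochondrial genes 6 were higher and 2 lower with GDNF, and 3 and 5 without GDNF replicate 3. Gabpa, the DNA-binding part of GABP, had 148, 137 and 146 CPM in control and 140, 160 and 222 CPM with GDNF, a log2 fold change of 0.28 (SE 0.12, edgeR adjusted p = 0.228), or 0.056 without GDNF replicate 3. Its first 2 GDNF cultures were within or near the control range. Pprc1, a coactivator of the PGC-1 family, had 135, 111 and 117 CPM in control and 95.2, 102 and 98.7 CPM with the antibody, a log2 fold change of -0.29 (SE 0.096, edgeR adjusted p = 0.853). Ppargc1a, the best known member of that family, had at most 1.64 CPM in any library.

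The tested genes outside the list whose log2 level followed the mean of the members most closely over the 12 libraries were Lrr1 (Pearson's r = 0.94), Mrrf (0.92), Ifit2 (0.87), Hars (0.87) and Fam69a (0.85). They are the extremes of all tested genes, so high values are given by the choice, and the mean they follow varied little between libraries. Mrrf, the recycling factor described above, is the only one of these on a list of mitochondrial translation genes.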

How the data were processed

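RNA-seq was done on 12 cultures in 4 groups of 3. The authors' deposited table holds raw counts per gene, whole numbers that are not scaled. Per the submitters' processing notes, kallisto 0.46.2, FastQC and MultiQC were used with the builds GRCm39 and mm10; which build the counts rest on and whether strand was used are not given in the sources used here, so no coordinates are given for the counted genes. Promoter coordinates (GRCm38.p6) and distances between starts (GENCODE M21) come from the reference. A symbol was matched to 52081 of the 55414 IDs.

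Low counts were filtered by filterByExpr of edgeR (at least 10 counts, 15 in total), and the rest scaled by TMM and fitted in 1 model of 4 groups by edgeR 4.0.16 under R 4.3.3 (quasi-likelihood F test, 2-sided, Benjamini-Hochberg adjustment over 11332 genes, called at 0.05). CPM values use the TMM-scaled library sizes, and log levels a pseudocount of 2 CPM. A count of 3 corresponds to 0.371 to 0.534 CPM. Intervals use the model's standard errors. Calls of the test were tried on simulated counts in which no library stood apart. That trial therefore does not cover the effect of a library such as GDNF replicate 3. DESeq2 1.42.0 and limma 3.58.1 served as alternatives. GC content and length are medians over the coding transcripts of GENCODE M21. Groups do not overlap where every culture of one lies above every culture of the other.

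Members named in the text are the 4 of smallest p per direction and comparison, the 5 highest and lowest per length, the Mrps18 paralogs, Mrpl12, Mrps36, Mrpl58 and untested members, unless said otherwise. Pathway genes are up to 3 per list by smallest p, and others were picked after their values were seen. The members and lists were chosen with earlier results of these data known. The subunit assignment was written by hand from structural nomenclature, and the named translation factor Mtrfr had no row. Same-numbered cultures were not treated as paired, since the labels do not say that a number is a shared batch. Correlations of their deviations were -0.234 to 0.122, which does not settle whether they were paired. No sample was left out.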

Additional observations from a re-analysis of the deposited data

How the results depend on the processing

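No member or gene passed in any of the 5 comparisons under the chosen fit, and this did not hold under all alternatives, the cause of which was not tested. With no filter on low counts 736 genes and 5 members (Mrps35, Mrps33, Mrpl42, Mrps22 and Mrpl32) passed for GDNF against control, 8 genes for the antibody against control, 348 genes and 1 member for both against GDNF, 4 genes for both against the antibody, and 403 genes and 1 member for the interaction. The share of all genes is not given for the fit with no filter, so its member counts are not set against a background. Sample quality weights in limma-voom, added after seeing the data, gave 2614 of the 11332 genes and 14 of the 77 members for GDNF against control. Out of the same totals, 277 genes passed for the antibody against control, and 1462 genes and 5 members for both against GDNF. For both against the antibody 7 genes passed, and for the interaction 2425 genes and 13 members. Medians of the members were then 0.011 for GDNF against control and -0.0046 for both against GDNF. DESeq2 passed 31 genes for GDNF against control and 0 members. Fits on the compared groups alone passed 33 genes for the antibody against control and 5 for both against the antibody. With the GC and length trend removed the medians were 0.023 for the antibody against control and -0.044 for the interaction (-0.044 also with the replicate block), and Mrps34 for GDNF against control turned to 0.039 (0.041 with the block) and Mrpl38 in the interaction to -0.066 (-0.067 with the block). With that trend removed and GDNF replicate 3 left out, 2 genes, 22 genes, 1 gene and 22 genes passed for GDNF against control, the antibody against control, both against GDNF and the interaction. The medians were then 0.023 for the antibody against control and -0.047 for the interaction, and Mrps34 stood at 0.016. The replicate block alone, on numbers not known to pair the cultures, left 0 genes passing in each comparison, with a median of 0.045 for GDNF against control. Leaving out each library in turn gave 0 to 2696 genes and 0 to 16 members for GDNF against control, 0 to 8 genes for the antibody against control, 0 to 1986 genes and 0 to 7 members for both against GDNF, and 0 to 1875 genes and 0 to 8 members for the interaction, the highest without GDNF replicate 1, except the 8 genes, without GDNF replicate 3. Medians ran from 0.031 to 0.072 for GDNF against control, 0.039 to 0.067 for the antibody against control, -0.039 to -0.015 for both against GDNF, -0.033 to -0.0066 for both against the antibody and -0.10 to -0.033 for the interaction. Members at low counts, such as Mrps18c, are limited by depth.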
